A study of Mus musculus with 21 samples.

Results

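The 5 genes described here, Hapln1, Vcan, Has2, Cd44 and Tnfaip6, encode the proteins that make, hold together and bind the hyaluronan matrix. They were taken by name, with every probe set that the platform annotation assigns to them, which gave 19 of the 45037 probe sets tested and 5 of 18193 genes. A probe set is a group of short array probes that reports a transcript. Hapln1 has 4 probe sets, Vcan 8, Has2 2, Cd44 4 and Tnfaip6 1. Transcripts were measured on Affymetrix arrays in mouse embryonic stem cells of the CGR8 line and in embryoid bodies, the aggregates in which such cells start to differentiate. Undifferentiated cells (day 0) were kept in 10% GMEM. Embryoid bodies with ascorbic acid were grown in 20% IMDM with ascorbic acid (vitamin C) at 100 µM, and control embryoid bodies in 20% IMDM without it; both arms were collected at days 2, 3 and 5. The aggregates were formed from 500 cells in hanging drops of 25 µL and were put on a shaker after day 2. Each of the 7 groups holds 3 biological replicates, 21 arrays in all, and all come from this 1 cell line. Per the study's design text, arrays were run only for cultures whose aggregates went on to beat more often when given ascorbic acid, so they are a selected set.

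Hyaluronan is a long unbranched sugar polymer that hyaluronan synthases at the plasma membrane build from nucleotide sugars and push out of the cell as they make it. Versican, a large proteoglycan with chondroitin sulfate side chains, binds the polymer, and link protein locks the binding in place. CD44 is the main cell-surface receptor of hyaluronan, and the enzyme encoded by Tnfaip6 cross-links the polymer by moving protein heavy chains onto it. In the mouse embryo this matrix fills the cardiac jelly, and loss of Has2, Vcan or Hapln1 disturbs formation of the endocardial cushions.

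Promoters are shown for 3 of the 4 genes that rose together at day 5, so that the motifs named next can be seen in place. Has2 has no sequence printed here. Each sequence runs 5′ to 3′ on the gene's strand, from 250 bases before to 50 bases after the start of transcription (RefSeq, GRCm38.p6). They lie at chr13:89540386-89540685 on the plus strand for Hapln1, chr13:89742463-89742762 on the minus strand for Vcan and chr2:102901616-102901915 on the minus strand for Cd44. Capitals mark a match to a searched motif.
Hapln1: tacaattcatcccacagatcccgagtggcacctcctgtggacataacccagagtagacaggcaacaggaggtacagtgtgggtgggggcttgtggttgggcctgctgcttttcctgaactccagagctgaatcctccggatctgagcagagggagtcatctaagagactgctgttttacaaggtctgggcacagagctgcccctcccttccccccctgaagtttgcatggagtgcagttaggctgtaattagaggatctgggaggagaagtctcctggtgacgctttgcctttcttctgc
Vcan: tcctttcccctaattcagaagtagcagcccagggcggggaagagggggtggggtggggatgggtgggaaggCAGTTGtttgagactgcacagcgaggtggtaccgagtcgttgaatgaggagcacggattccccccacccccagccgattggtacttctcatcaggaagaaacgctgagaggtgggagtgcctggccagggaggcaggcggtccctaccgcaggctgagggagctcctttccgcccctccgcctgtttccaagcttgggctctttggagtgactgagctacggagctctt
Cd44: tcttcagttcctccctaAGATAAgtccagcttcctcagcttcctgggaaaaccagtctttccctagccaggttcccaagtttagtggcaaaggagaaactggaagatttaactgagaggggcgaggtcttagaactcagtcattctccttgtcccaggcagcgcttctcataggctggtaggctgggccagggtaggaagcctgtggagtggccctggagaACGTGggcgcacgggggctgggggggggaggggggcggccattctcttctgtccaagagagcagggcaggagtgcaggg
The motifs, searched on both strands, were the TATA box (TATAAA), the E-box (CANNTG), the HIF core (ACGTG and GCGTG), the TCF/LEF core (CTTTGA) and the GATA core (AGATAA and TGATAA). Of 32851 mouse promoters of the same length, 13.6% held the TATA box, 72.3% the E-box, 43.8% the HIF core, 16% the TCF/LEF core and 18.6% the GATA core. The Vcan promoter held 1 E-box, which starts at -179 from the transcription start. The Cd44 promoter held 1 GATA core at -233 and 1 HIF core at -29. The Hapln1 window held none of these letters. No motif was shared by the 3 windows. These matches describe letters only and say nothing about the binding of a factor.

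Values are RMA log2 signals, and levels of different probe sets are not comparable with each other. The 25th percentile of all values is 4.85, and a signal below it may be background, so against such levels differences are given without a fold. Array medians were 6.05 to 6.19, and arrays of a group correlated with r of 0.972 to 0.995; the lowest value involves day 0 replicate 1, which stands apart from the other day 0 arrays. Each gene is called by its brightest probe set in limma, where the p value adjusted by Benjamini-Hochberg across every probe set had to be under 0.05, and errors of differences are standard errors of that fit with n = 3 per group. The arrays hold RNA of whole aggregates, so fewer cells of a type and less RNA per cell cannot be told apart.

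Most calls of the hyaluronan matrix genes fell between days 3 and 5. Hapln1, Vcan, Has2 and Cd44 rose in that step in both arms, and Tnfaip6 stayed at the low end throughout. Thus 4 of 5 genes rose with ascorbic acid and 4 of 5 rose in controls, where 6.73% and 6.76% of all probe sets rose. Read by probe set, 13 of 19 rose with ascorbic acid and 12 of 19 in controls. The genes were chosen with earlier results of these data known, which may add to their excess over all probe sets. The median difference of the 5 genes was 2.58 log2 units with ascorbic acid and 2.65 in controls, beside -0.02 for all probe sets in each arm. Before day 5 the calls were few. Only Has2 was called at day 2 against day 0, where 3.44% of all probe sets rose (without day 0 replicate 1, Cd44 too), and 0 of 5 genes were called between days 2 and 3 in either arm, where 2.94% of probe sets were called with ascorbic acid and 3.35% in controls. Neighbouring steps share arrays: the day 3 arrays of each arm and the day 2 control arrays serve in 2 steps each.

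**Figure D1:**
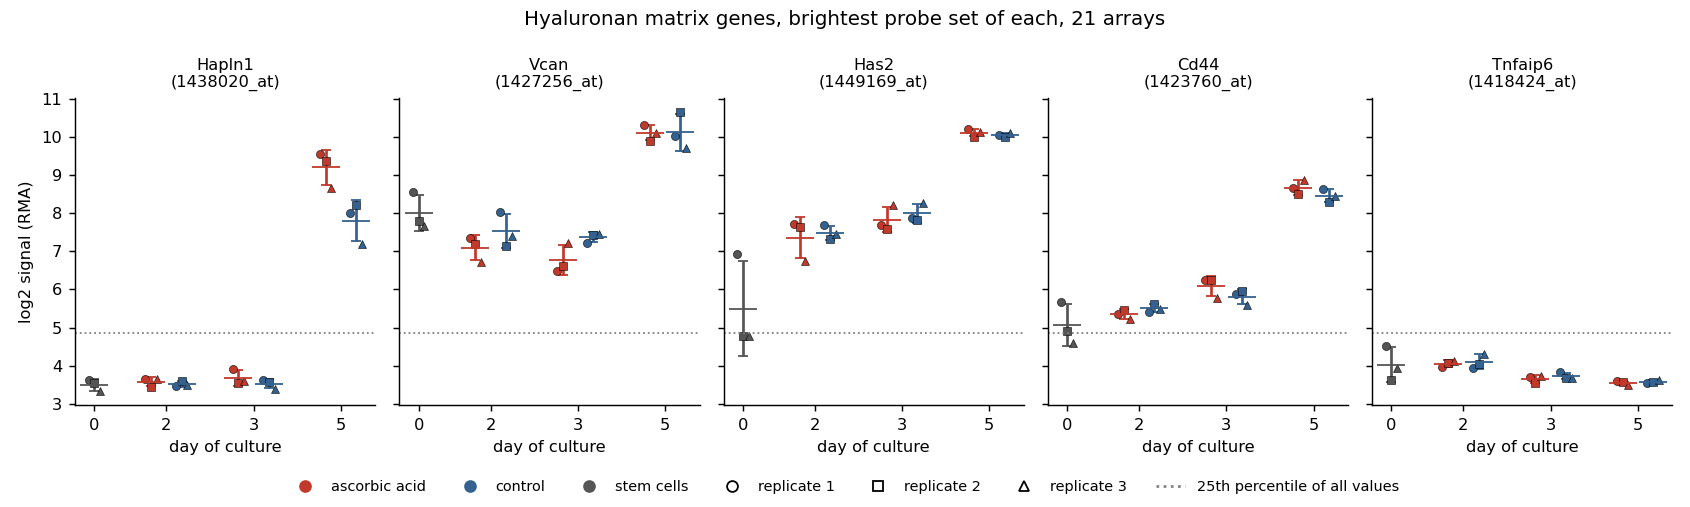
Log2 signal of the brightest probe set of each gene (vertical axis) by day of culture (horizontal axis), with points for single arrays, long bars for means and error bars for SD (n = 3 per group); the dotted line is the 25th percentile of all values (4.85). Hapln1 lies below that line until day 3 and reaches 8.67 to 9.55 with ascorbic acid and 7.2 to 8.2 in controls at day 5, while Tnfaip6 lies below it on all arrays.

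Has2 encodes the synthase that makes most hyaluronan in the early mouse embryo. It was called at day 2 against day 0. Its brightest probe set (1449169_at) read 6.93, 4.79 and 4.77 at day 0. At day 2 it read 7.71, 7.63 and 6.74 with ascorbic acid and 7.69, 7.32 and 7.45 in controls. Day 0 replicate 1 stood far above the other day 0 arrays, and all day 2 control arrays were higher than any day 0 array. Day 2 controls exceeded day 0 by 1.99 ± 0.38 log2 units (adjusted p = 0.0026 in limma), and by 2.71 (adjusted p = 9.62e-08) without day 0 replicate 1. With only the groups compared in the fit the call was lost (adjusted p = 0.113). The other Has2 probe set (1418678_at) gave 2.45 ± 0.45 (adjusted p = 0.00182), beside 2.04 with ascorbic acid and 1.68 in controls for day 5 against day 3. Medium changed together with time between day 0 and day 2, so the effects of medium and of time cannot be told apart.

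From day 2 to day 3 Has2 was not called in either arm. It read 7.68, 7.59 and 8.21 with ascorbic acid and 7.87, 7.83 and 8.27 in controls at day 3. At day 5 it read 10.2, 10 and 10.13 with ascorbic acid and 10.05, 9.99 and 10.11 in controls. The day 5 arrays of both arms overlap and lie above every earlier array. Day 5 exceeded day 3 by 2.28 ± 0.38 log2 units with ascorbic acid (4.87-fold, adjusted p = 2.80e-04) and by 2.06 ± 0.38 in controls (4.17-fold, adjusted p = 7.58e-04). In the order of group means, neighbours overlap in range from day 0 up to day 3, and both day 5 groups stand clear of the rest.

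Hapln1, the link protein that stabilises the binding of versican to hyaluronan, showed the largest rise of the 5 genes. Its brightest probe set (1438020_at) read 3.62, 3.55 and 3.33 at day 0. Through days 2 and 3 it stayed between 3.44 and 3.92 with ascorbic acid and between 3.4 and 3.64 in controls. Every array up to day 3 therefore lies below the 25th percentile. At day 5 it read 9.55, 9.37 and 8.67 with ascorbic acid and 8.01, 8.2 and 7.2 in controls. Day 5 exceeded day 3 by 5.51 ± 0.21 log2 units with ascorbic acid (adjusted p = 2.65e-13) and by 4.27 ± 0.21 in controls (adjusted p = 1.73e-11).

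The other 3 Hapln1 probe sets also lay at the low end through day 3 and rose by day 5. With ascorbic acid their rises were 2.74 (1421633_a_at), 4.24 (1426294_at) and 4.25 (1426295_at) log2 units. In controls they were 1.60, 3.02 and 2.84 log2 units for the same probe sets in that order. All 6 rises passed the test, the weakest at an adjusted p of 0.00105.

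Vcan encodes versican. It was above the low end at every stage. Its brightest probe set (1427256_at) read 8.54, 7.8 and 7.66 at day 0. At day 2 it read 7.35, 7.19 and 6.72 with ascorbic acid and 8.03, 7.15 and 7.4 in controls. At day 3 the signals were 6.48, 6.62 and 7.22 with ascorbic acid and 7.21, 7.43 and 7.46 in controls. These ranges overlap between neighbours in the order of group means, and neither the step from day 0 to day 2 (-0.47 ± 0.27) nor that from day 2 to day 3 (-0.31 ± 0.27 with ascorbic acid, -0.16 ± 0.27 in controls) was called. At day 5 Vcan read 10.3, 9.9 and 10.11 with ascorbic acid and 10.01, 10.65 and 9.7 in controls, above every earlier array. The rise over day 3 was 3.33 ± 0.27 log2 units with ascorbic acid (10.1-fold, adjusted p = 3.15e-08) and 2.75 ± 0.27 in controls (6.74-fold, adjusted p = 4.45e-07).

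The Vcan probe sets fall into those that rose at day 5 and those that did not. Besides the brightest, 1421694_a_at rose by 3.28 log2 units with ascorbic acid and 3.07 in controls, and 1427257_at by 2.10 with ascorbic acid and 2.01 in controls. A dim probe set, 1447887_x_at, was called, with 0.76 with ascorbic acid and 0.92 in controls, but was below the 25th percentile on all 21 arrays, so this has no interpretation as expression. The remaining 4 (1459767_x_at, 1447586_at, 1433043_at and 1433044_at) differed by -0.23 to 0.21 and were not called; their highest signal on any array was 5.9. Which versican transcripts each probe set reads is not given in the files.

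Cd44, the receptor, rose late as well. Its brightest probe set (1423760_at) read 5.67, 4.92 and 4.61 at day 0. At day 2 it read 5.36, 5.47 and 5.22 with ascorbic acid and 5.42, 5.63 and 5.49 in controls. Day 3 gave 6.26, 6.24 and 5.78 with ascorbic acid and 5.88, 5.96 and 5.6 in controls. In the ascorbic acid arm no day 3 array overlapped day 2, and the difference of 0.74 ± 0.20 lay at an adjusted p of 0.0502. The second probe set (1434376_at) was called in that arm (1.18 ± 0.26, adjusted p = 0.0165) and had 0.75 ± 0.26 in controls (adjusted p = 0.131); a test of whether the difference between the arms changed across days 2, 3 and 5 gave an adjusted p of 1 for this probe set in the unpaired limma fit. Day 2 controls exceeded day 0 by 0.45 ± 0.20 (adjusted p = 0.202), and by 0.75 (adjusted p = 0.00419) without day 0 replicate 1.

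At day 5 Cd44 read 8.65, 8.49 and 8.87 with ascorbic acid and 8.64, 8.29 and 8.45 in controls. The arms overlap, and all 6 arrays are above every day 3 array. The rise over day 3 was 2.58 ± 0.20 log2 units with ascorbic acid (5.97-fold, adjusted p = 1.80e-08) and 2.65 ± 0.20 in controls (6.26-fold, adjusted p = 1.16e-08). Probe set 1434376_at rose by 3.36 with ascorbic acid and 3.38 in controls. Probe set 1452483_a_at was called with ascorbic acid (0.49 ± 0.14, adjusted p = 0.0203) and not in controls (0.32 ± 0.14, adjusted p = 0.15), and 1443265_at stayed between 3.68 and 4.03 on all arrays.

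Tnfaip6, the heavy-chain transferase, was not detected above the low end. Its probe set (1418424_at) ranged from 3.49 to 4.53 over the 21 arrays, below the 25th percentile on each. It read 3.6, 3.58 and 3.49 with ascorbic acid and 3.55, 3.58 and 3.62 in controls at day 5. The main fit called it in no comparison, and differences at this level have no interpretation as expression.

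**Figure D2:**
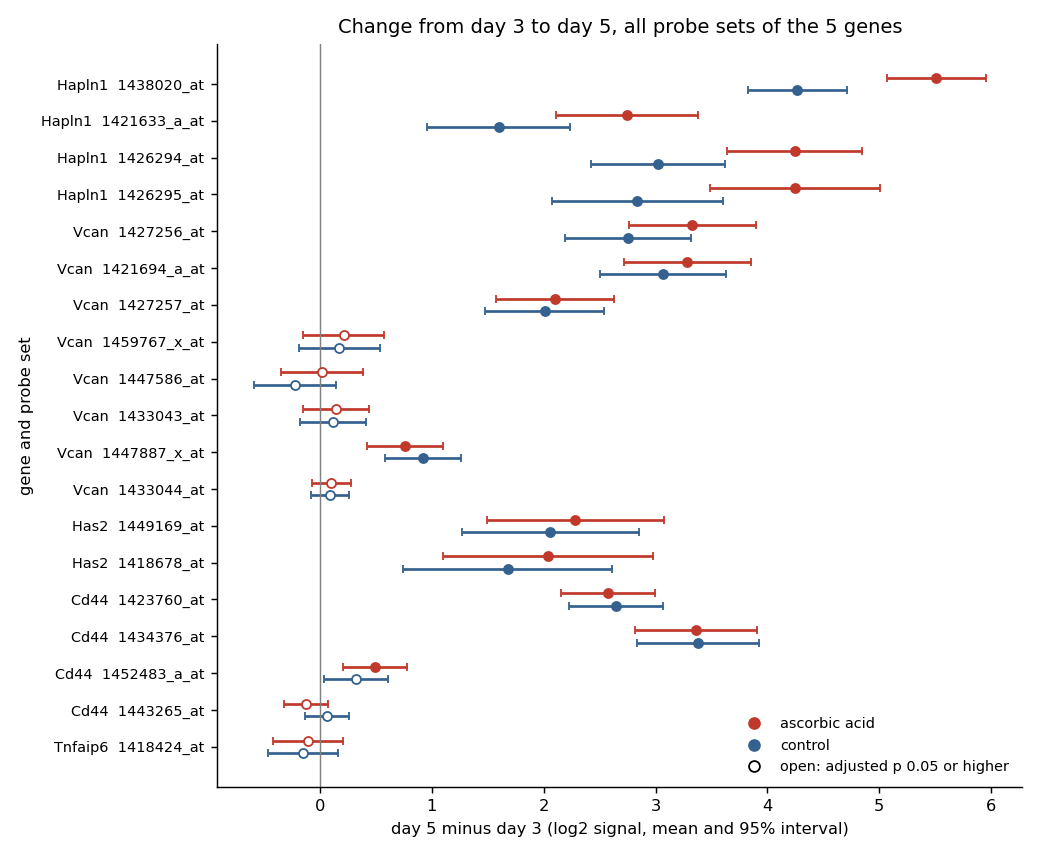
Difference between day 5 and day 3 in log2 signal (horizontal axis) for all 19 probe sets (vertical axis), with ascorbic acid above control in each row; points are means, bars 95% intervals of the unpaired fit, and open points were not called. With ascorbic acid 13 of 19 probe sets were called higher and in controls 12 of 19, the dim Vcan probe set 1447887_x_at among them, and the rises of Hapln1 were larger with ascorbic acid on each of its 4 probe sets.

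The study's own question is what ascorbic acid changes before heart cells beat. Of the 5 genes, Hapln1 alone was called, at day 5. Its brightest probe set was 1.39 ± 0.21 log2 units higher with ascorbic acid than in controls (2.63-fold, 95% interval 0.95 to 1.84, adjusted p = 0.00903 in limma). The error, interval and p value pool the spread of all 7 groups. At day 5 the SD of Hapln1 was 0.46 with ascorbic acid and 0.53 in controls. In the groups up to day 3, all at the low end, the SD was 0.07 to 0.20. The call was lost with the mean of its probe sets (adjusted p = 0.0889), with only the groups compared in the fit (adjusted p = 0.45), and without ascorbic acid replicate 1 (adjusted p = 0.0817) or replicate 2 (adjusted p = 0.0877). On the brightest probe set no control array reached the lowest ascorbic acid array at day 5. This comparison called 31 of 45037 probe sets, or 0.0688%, and Hapln1 was the tenth of them by p; 24 of the 31 were higher with ascorbic acid (0.0533%). Has2, Vcan, Cd44 and Tnfaip6 were not called at day 5.

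Arrays of the same day and replicate number deviate together, so a paired fit was run beside the main one, with the ascorbic acid and control array of a number compared within their pair. The labels do not say that a number marks a shared culture, so the pairing is inferred from these data. Arrays of unlike numbers were not compared in this way. Within pairs Hapln1 was higher with ascorbic acid by 1.54, 1.17 and 1.47 log2 units (adjusted p = 1.04e-05 in the paired limma fit, which called 0.615% of probe sets). The other 3 Hapln1 probe sets had mean differences of 1.26 (1421633_a_at), 1.39 (1426294_at) and 1.41 (1426295_at). Each was higher with ascorbic acid in 3 of 3 pairs. Their pair differences were 1.99, 1.14 and 0.65 for 1421633_a_at and 1.94, 1.18 and 1.05 for 1426294_at. For 1426295_at they were 2.35, 0.39 and 1.49. Single arrays of the arms overlap at day 5 on 1421633_a_at and 1426295_at. These 3 probe sets missed the threshold in the unpaired fit (adjusted p = 0.278, 0.105 and 0.377 in that order). They passed it in the paired fit (adjusted p = 8.98e-04, 3.75e-05 and 0.00336). The paired fit pools the spread of pairs over days 2, 3 and 5, and Hapln1 lies at the low end at days 2 and 3. Replicate 3 was the lowest Hapln1 array of each arm at day 5 on all 4 probe sets.

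**Figure D3:**
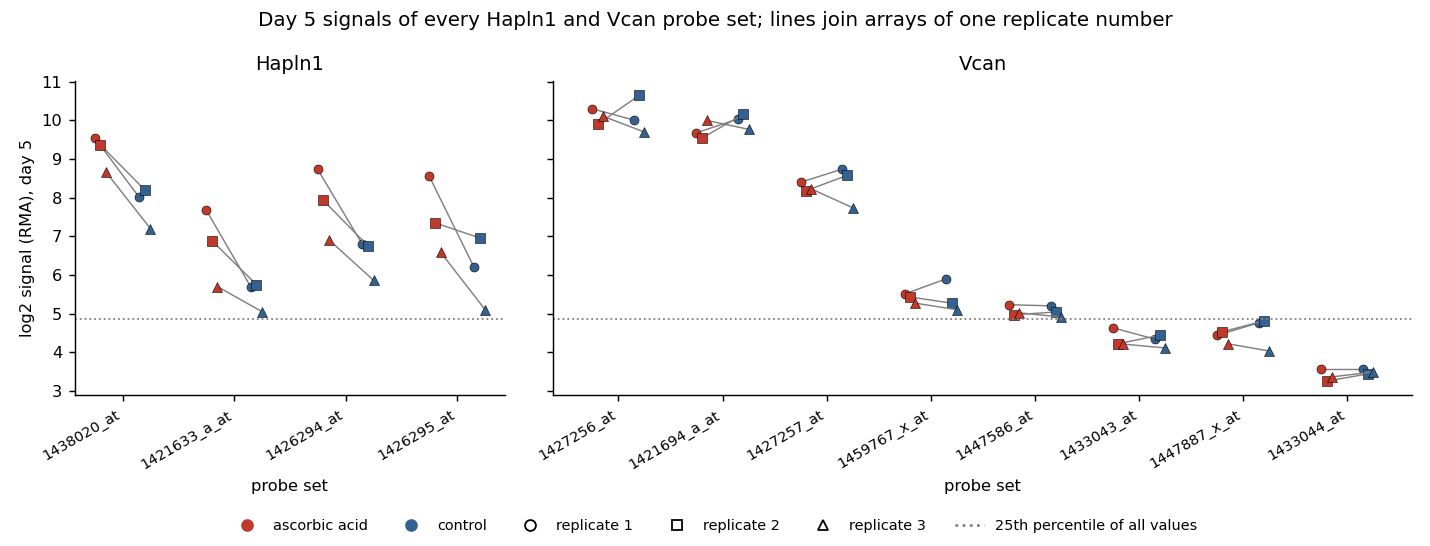
Day 5 log2 signals (vertical axis) of every Hapln1 and Vcan probe set (horizontal axis), with ascorbic acid left and control right; grey lines join arrays of the same replicate number and the dotted line is the 25th percentile of all values. Every Hapln1 line slopes down toward the control, whereas those of the brightest Vcan probe set cross.

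At days 2 and 3 Hapln1 was at the low end in both arms, and its differences were 0.05 ± 0.21 at day 2 and 0.15 ± 0.21 at day 3. Averaged over the 3 days it was 0.53 ± 0.12 higher with ascorbic acid, which missed the threshold unpaired (adjusted p = 0.324, with 0.0155% of probe sets called) and passed it paired (adjusted p = 6.99e-04, with 1.06% called). The F test of a difference between the 3 day effects gave an adjusted p of 0.757 unpaired, where 0.00666% of probe sets were called, and of 0.00174 paired, where 0.375% were called.

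The other genes did not pass in either fit. Vcan differed by -0.02 ± 0.27 at day 5 (95% interval -0.58 to 0.55), with pair differences of 0.29, -0.75 and 0.41. At days 2 and 3 it was lower with ascorbic acid in 5 of 6 pairs, with mean differences of -0.44 and -0.59 log2 units and adjusted p of 0.754 and 1 unpaired and 0.275 and 0.734 paired. Has2 differed by 0.06 ± 0.38 at day 5 (95% interval -0.73 to 0.85 unpaired and -0.24 to 0.36 paired). These intervals still allow a difference of up to 0.85 log2 units in Has2.

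Cd44 was lower with ascorbic acid in 3 of 3 pairs at day 2, with differences of -0.06, -0.16 and -0.27 log2 units, and higher in 3 of 3 pairs at day 3, with 0.38, 0.28 and 0.18. At day 5 its pair differences were 0.01, 0.2 and 0.42, and the mean was 0.21 ± 0.20 (95% interval -0.21 to 0.63). None of these passed, and the test of a difference between days gave an adjusted p of 1 unpaired and 0.464 paired. At day 2 the comparison called 0 of 5 genes and 0.00444% of all probe sets unpaired and 0 of 5 and 1.64% paired. At day 3 it called 0 of 5 genes and 0.00222% unpaired and 0 of 5 and 0.0910% paired. At an unadjusted p under 0.05, 0 of 5 genes passed at day 2, 1 of 5 (Vcan) at day 3 and 1 of 5 (Hapln1) at day 5, beside 7.03%, 1.55% and 3.20% of all probe sets on those days.

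**Figure D4:**
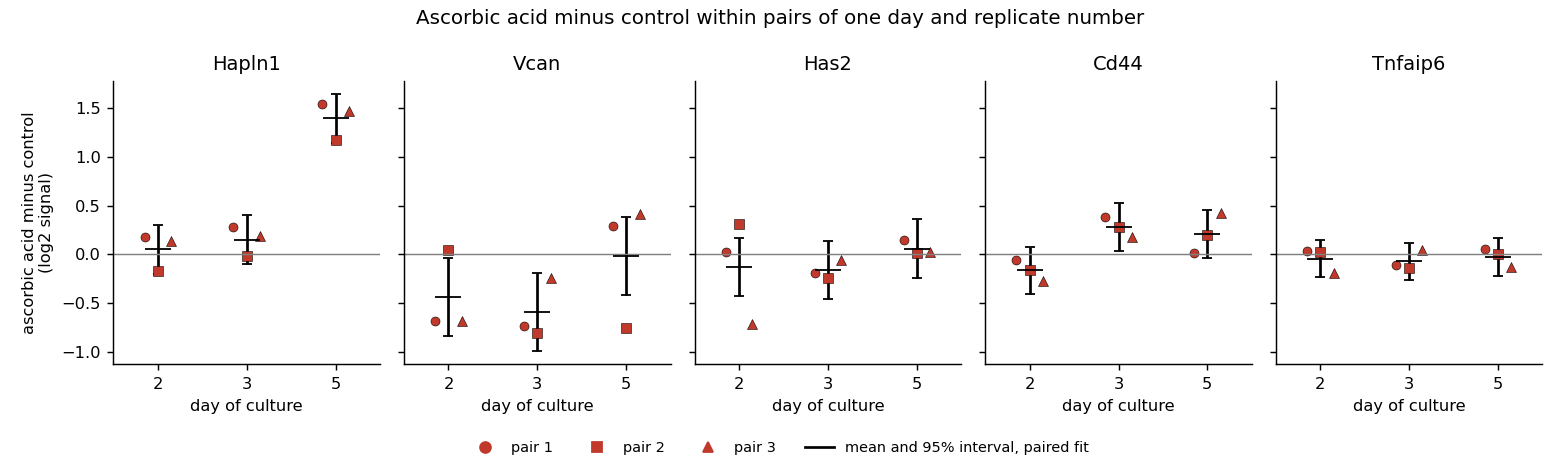
Ascorbic acid minus control in log2 signal (vertical axis) within each pair of arrays of the same day and replicate number, by day (horizontal axis), for the brightest probe set of each gene; long bars are means and error bars 95% intervals of the paired fit. The 3 Hapln1 pairs at day 5 lie at 1.17 to 1.54, and the Vcan pairs fall on both sides of 0 at days 2 and 5.

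Hapln1 and Vcan are adjacent protein-coding genes on chromosome 13 in the RefSeq annotation (GRCm38.p6), on opposite strands. Both rose at day 5, and Hapln1 but not Vcan was called for ascorbic acid. The protein-coding genes on the outer sides of the pair were not called in either comparison. Edil3, next to Hapln1, differed by 0.24 ± 0.14 log2 units between ascorbic acid and control at day 5 and by 0.01 ± 0.14 between days 5 and 3 in controls. Xrcc4, next to Vcan, differed by 0.06 ± 0.14 and -0.13 ± 0.14 in the same comparisons.

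The wider machinery was read from 9 lists that hold 72 genes, the 5 described here among them; 69 were measured. From day 3 to day 5, 17 of 69 rose and 6 fell with ascorbic acid, and 15 rose and 6 fell in controls; of all probe sets, 6.30% fell with ascorbic acid and 6.45% in controls. The median difference was 0.09 with ascorbic acid and 0.02 in controls. The lists were not tested as sets.

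Of the 5 hyaluronan synthase and precursor genes, Has2 among them, 3 rose and 0 fell with ascorbic acid, and 2 rose and 1 fell in controls. Ugdh, which makes the UDP-glucuronic acid used for hyaluronan and chondroitin sulfate, rose from day 3 to day 5 by 1.80 ± 0.22 log2 units with ascorbic acid (adjusted p = 7.07e-06) and by 2.03 ± 0.22 in controls (adjusted p = 1.41e-06). Ugp2, which makes UDP-glucose just upstream, rose by 0.44 ± 0.14 with ascorbic acid (adjusted p = 0.0373) and differed by 0.33 ± 0.14 in controls (adjusted p = 0.132). The synthase gene Has3 differed by -0.29 ± 0.19 with ascorbic acid (adjusted p = 0.39) and fell in controls (-0.79 ± 0.19, adjusted p = 0.00619), and Has1 averaged 7.42 ± 0.12 with ascorbic acid and 7.33 ± 0.10 in controls at day 5 (SD, n = 3). Of the 6 hyaluronan degradation genes measured, 0 were called in this step in either arm. Of 9 receptors and binders, Cd44 rose and C1qbp, a mitochondrial and cell-surface binder, fell by 0.29 ± 0.07 in each arm.

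Chondroitin sulfate enzymes, which build the side chains of versican, rose in 3 of 16 cases with ascorbic acid and 4 of 16 in controls, and 0 fell. The day 3 signals of Chsy3 and Csgalnact1 lay below the 25th percentile in both arms, so their differences may understate the change. Chsy3, a chain polymerase, rose by 2.20 ± 0.19 with ascorbic acid (adjusted p = 7.48e-08) and 2.27 ± 0.19 in controls (adjusted p = 4.46e-08). Csgalnact1, which starts the chains, rose by 1.95 ± 0.17 with ascorbic acid (adjusted p = 1.17e-07) and 0.89 ± 0.17 in controls (adjusted p = 0.0013). Its levels at day 5 were 5.67 to 6.43 with ascorbic acid and 4.86 to 5.67 in controls. The polymerase gene Chsy1 had risen a step earlier, from day 2 to day 3, by 1.11 ± 0.19 with ascorbic acid and 1.16 ± 0.19 in controls.

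Partners of versican rose in 3 of 5 cases with ascorbic acid and 2 of 5 in controls. Fn1 (fibronectin) rose from day 3 to day 5 by 2.11 ± 0.25 with ascorbic acid and 2.19 ± 0.25 in controls, after falling by 2.18 from day 0 to day 2 in controls. Fbln1 (fibulin) rose by 1.17 ± 0.26 with ascorbic acid and 1.49 ± 0.26 in controls. The brain lectican gene Ncan fell by 1.08 with ascorbic acid and by 1.27 in controls, and the link protein gene Hapln4 fell by 0.42 with ascorbic acid and by 0.46 in controls. Of the ezrin, radixin and moesin genes, whose products tie CD44 to the cytoskeleton, Rdx rose by 1.08 ± 0.10 with ascorbic acid and 1.10 ± 0.10 in controls, Msn (moesin) rose by 0.79 ± 0.12 with ascorbic acid and 0.52 ± 0.12 in controls, and Ezr fell by 1.35 with ascorbic acid and by 1.21 in controls. Esrp1, a splicing factor that acts on Cd44 exons, fell by 1.67 with ascorbic acid (adjusted p = 0.0331) and differed by -1.52 in controls (adjusted p = 0.0536).

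Proteases that cleave versican were mixed. Adamts20 rose by 1.21 ± 0.18 with ascorbic acid and 1.81 ± 0.18 in controls, from day 3 signals below the 25th percentile in both arms, and Adamts1 rose by 1.14 ± 0.28 with ascorbic acid (adjusted p = 0.00849) and differed by 0.52 ± 0.28 in controls (adjusted p = 0.281). Adamts15 fell by 0.60 with ascorbic acid and by 0.59 in controls. Itih5, a heavy-chain gene, rose by 0.86 ± 0.23 with ascorbic acid and 1.39 ± 0.23 in controls and was the only one of the 8 cross-linking genes called.

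For ascorbic acid against control at day 5, 1 of 69 pathway genes was called unpaired (Hapln1), beside 0.0688% of all probe sets, and in the paired fit 4 were higher and 1 lower, beside 0.615%. Beside Hapln1 these were Csgalnact1 (0.80 ± 0.10, adjusted p = 6.87e-04), Adamts1 (0.87 ± 0.15, adjusted p = 0.0108), Msn (0.40 ± 0.09, adjusted p = 0.04) and Adamts20 (-0.84 ± 0.15, adjusted p = 0.00981). Their unpaired adjusted p values were 0.142, 0.99, 0.618 and 0.119 in that order. The level of Adamts20 at day 5 was 4.59 to 5.57 with ascorbic acid and 5.63 to 5.97 in controls, so these groups do not overlap. Adamts1 lay at 6.62 to 7.29 with ascorbic acid and at 5.63 to 6.95 in controls, with overlap.

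At day 2 the paired fit called 3 pathway genes, all higher with ascorbic acid, beside 1.64% of all probe sets, and the unpaired fit called 0, beside 0.00444%. Ugdh lay at 9.53 to 9.94 with ascorbic acid and 8.61 to 9.28 in controls, a difference of 0.79 ± 0.09 (adjusted p = 3.90e-04 paired and 0.583 unpaired). Ugp2 lay at 9.29 to 9.49 with ascorbic acid and 8.78 to 9.16 in controls (0.43 ± 0.10, adjusted p = 0.0387 paired and 0.594 unpaired). Fn1 differed by 0.43 ± 0.09 (adjusted p = 0.0222 paired and 0.742 unpaired). It lay at 10.41 to 10.7 with ascorbic acid and 9.74 to 10.51 in controls, with overlap. The 3′ minus 5′ difference of the Actb control probes, a sign of RNA quality, was 0.91 to 1.08 with ascorbic acid and 0.94 to 1.4 in controls at day 2. That of Gapdh was 0.11 to 0.21 with ascorbic acid and 0.17 to 0.63 in controls. The part of RNA quality in these day 2 differences was not tested. At day 5 Ugdh averaged 11.36 ± 0.35 with ascorbic acid and 11.43 ± 0.42 in controls (SD, n = 3), with overlap.

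**Figure D5:**
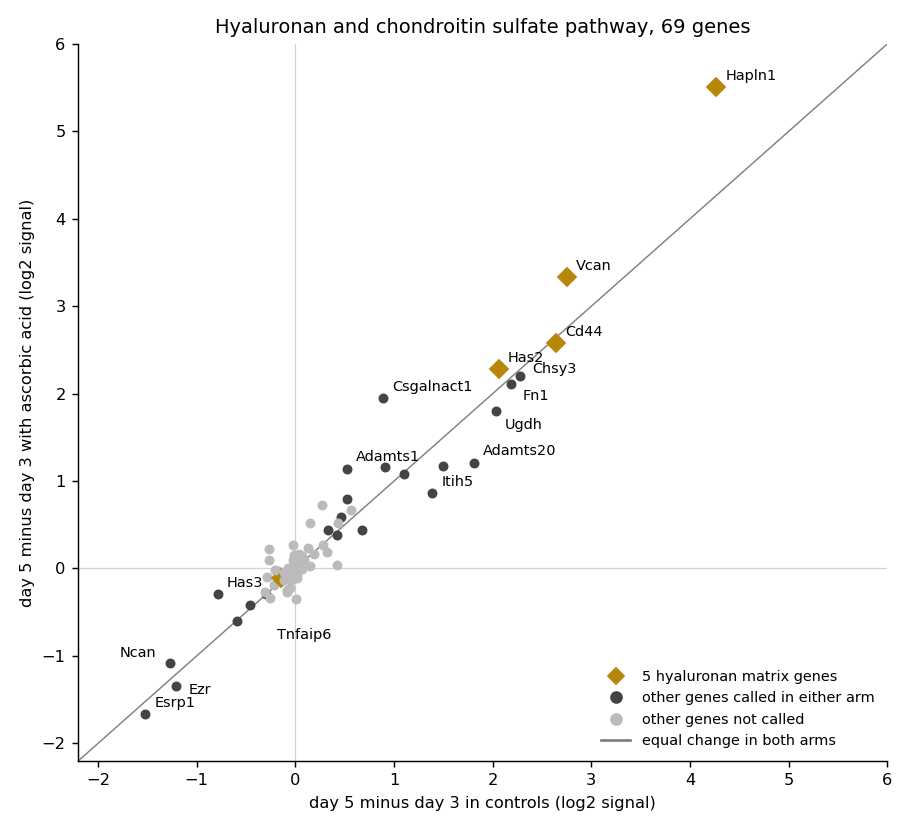
Difference between day 5 and day 3 in log2 signal with ascorbic acid (vertical axis) against the same difference in controls (horizontal axis) for 69 genes of hyaluronan and chondroitin sulfate biology; diamonds are the 5 matrix genes, dark points other genes called in either arm and grey points the rest. Hapln1 and Csgalnact1 lie above the line of equal change (5.51 against 4.27, and 1.95 against 0.89), each from day 3 signals below the 25th percentile, and Ugdh, Fn1, Chsy3 and Cd44 lie close to it.

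Across the 21 arrays the 4 rising genes followed each other, with Pearson r of 0.92 for Hapln1 and Vcan, 0.96 for Hapln1 and Cd44, 0.91 for Has2 and Cd44 and 0.72 for Vcan and Has2. Tnfaip6 had r of -0.61 to -0.42 with them. These are descriptions: all points share the 7 groups, and the step to day 5 carries most of the range. Among 3189 genes whose group means spanned at least 1 log2 unit, those most like Hapln1 were Tal1, Tgfb2 and Kdr, each at r = 0.99. Tal1, a haematopoietic transcription factor gene, was called for ascorbic acid at day 5 (1.63 ± 0.15, adjusted p = 2.76e-05), and Tgfb2 (0.11 ± 0.21) and Kdr (0.33 ± 0.21) were not. Vcan was most like Ikbip, Ppp1r13b and Arhgap29 (r of 0.97, 0.97 and 0.95), and Has2 was most like Slc25a4, Cobll1 and Extl2 (r of 0.98, 0.97 and 0.97). Cd44 was most like Tspan12, Greb1l and Fbn2 (r of 0.99, 0.98 and 0.98). Low-end Tnfaip6 had no gene above r = 0.88.

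Markers of cell types moved in the same step. The lateral plate and cardiac mesoderm list rose in 8 of 8 genes in each arm; Hand2 averaged 10.67 ± 0.44 with ascorbic acid and 10.64 ± 0.19 in controls at day 5, against 5.74 ± 0.06 with ascorbic acid and 5.80 ± 0.23 in controls at day 3 (SD, n = 3). Pluripotency markers fell in 4 of 6 genes and rose in 1 of 6 (Klf4) in each arm. Pou5f1, the pluripotency factor gene, averaged 6.57 ± 0.72 with ascorbic acid and 6.51 ± 0.29 in controls at day 5, against 11.48 ± 0.05 with ascorbic acid and 11.65 ± 0.06 in controls at day 3 and 11.76 ± 0.45 at day 0. Streak and nascent mesoderm markers fell in 3 of 6 genes with ascorbic acid and 4 of 6 in controls, and 0 rose; Eomes fell by 5.09 with ascorbic acid and by 4.73 in controls. Extraembryonic endoderm markers rose in 4 of 6 genes in each arm, and 0 fell. Endothelial markers rose in 4 of 5 genes with ascorbic acid and 1 of 5 in controls. Fibroblast markers rose in 3 of 7 genes and fell in 1 (Thy1) with ascorbic acid, and rose in 4 of 7 in controls. Cardiomyocyte markers rose in 2 of 6 genes and fell in 1 with ascorbic acid, and 0 rose and 1 fell in controls. Neuroectoderm markers fell in 2 of 4 measured genes in each arm. Leukocyte markers changed in 0 of 6 genes in this step in either arm. In every group 2 of the 6, Ptprc and Itgam, were below the 25th percentile on all arrays, and the others were not. The 3′ minus 5′ difference of the Actb control probes, a sign of RNA quality, was 0.71 to 1.09 at day 5 and 1 to 1.28 at day 3 with ascorbic acid, and 0.85 to 0.94 at day 5 and 0.96 to 1.05 at day 3 in controls, where the days do not overlap. It was 0.94 to 1.4 in day 2 controls and 0.79 to 0.87 at day 0, again without overlap. The same difference of the Gapdh control probes was 0.29 to 0.31 at day 5 and 0.12 to 0.4 at day 3 with ascorbic acid. In controls the Gapdh difference was 0.15 to 0.36 at day 5 and 0.11 to 0.16 at day 3. Day 2 controls had 0.17 to 0.63 and day 0 had 0.06 to 0.18. These Gapdh ranges overlap in each comparison. The part of these marker and RNA quality shifts in the rises of Hapln1, Vcan, Has2 and Cd44 was not tested.

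Beside the higher Hapln1 with ascorbic acid at day 5, 2 of 5 endothelial markers were higher in the paired fit. They were Tek (1.81 ± 0.17, adjusted p = 2.69e-05) and Cdh5 (0.97 ± 0.14, adjusted p = 0.00232). That fit called 0.615% of all probe sets at day 5, and its errors pool the spread of pairs over all days. Single arrays of the arms overlap for both genes. Tek lay at 7.67 to 10.11 with ascorbic acid and 5.82 to 8.47 in controls. Cdh5 lay at 5.63 to 8.12 with ascorbic acid and 4.76 to 6.71 in controls. Pecam1 lay at 6.75 to 6.98 with ascorbic acid and 6.58 to 6.77 in controls, a mean difference of 0.17 with overlap, and was not called in either fit. The mean of the 5 endothelial markers ranged from 5.95 to 7.18 with ascorbic acid and from 5.45 to 6.44 in controls. In the paired fit 1 of 6 cardiomyocyte markers (Myl7), 1 of 6 extraembryonic endoderm markers (Sox7) and 1 of 7 fibroblast markers (Col1a2) were higher. Single arrays of the arms overlap at day 5 for Myl7 and Col1a2 and not for Sox7. Of the lateral plate markers, 0 of 8 were called. In the unpaired fit 0 markers of any list were called at day 5. The lists held leukocyte but no early blood genes; among the 31 probe sets called with Hapln1 were the blood transcription factor genes Tal1, Gata1 (0.97, adjusted p = 0.00815), Runx1 (1.31, adjusted p = 0.00815) and Nfe2 (1.09, adjusted p = 0.0416) and the embryonic globin gene Hbb-bh1 (3.31, adjusted p = 0.0419), all higher with ascorbic acid. These genes were chosen after their values were seen. RNA quality overlapped between arms at day 5: the Actb difference was 0.71 to 1.09 with ascorbic acid and 0.85 to 0.94 in controls. The part of these markers and blood genes in the Hapln1 difference was not tested.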

How the data were processed

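Values were the deposited log2 signals of 21 arrays, made by the authors with RMA per the submitters' processing notes, in a version not given in the sources used here. RMA fits a background, equalises array distributions and combines the probes of each set, so low signals are compressed. Of 45101 probe sets, 64 controls were left out. Genes come from the platform annotation, checked by Entrez identifier against RefSeq (34754 of 34958 probe sets with 1 symbol matched, 0 symbols changed). Arrays have no read depth, and 3 per group limits the precision. The p values rest on the spread between replicates pooled over all groups or pairs of a fit, not on the compared groups alone.

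Models were fitted with limma 3.58.1 in R 4.3.3 (group means, eBayes with an intensity trend) over all probe sets and checked on simulated data. Same-day, same-number arrays had deviations correlated at r of 0.178 to 0.679 in 9 of 9 pairs, all above 0.1, so the paired fit (9 pairs as blocks) stands beside the unpaired one. The labels give the numbers; the pairing rests on this check. The 5 genes, the lists and the tests were chosen with earlier results of these data known. Named genes are the 5 members, up to 3 called genes without overlap per pathway list and comparison, the 3 genes most like each member by Pearson r, and 7 cell markers. Genes called only in the paired fit, other markers and the neighbours Edil3 and Xrcc4 were named after their values were seen. Alternatives changed the probe set rule, dim filter (highest group mean at least 5), normalisation, prior, samples and blocks.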

Additional observations from a re-analysis of the deposited data

Results flagged for a closer look

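The effect of ascorbic acid on Hapln1 differed between days 2, 3 and 5 in the paired fit (adjusted p = 0.00174 for the test of the difference itself), with mean differences of 0.05, 0.15 and 1.39 log2 units at those days. The unpaired fit gave an adjusted p of 0.757 for the same test. Hapln1 was at the low end of the signal range in both arms at days 2 and 3, below the 25th percentile of all values.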

How the results depend on the processing

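The rise of 4 of 5 genes from day 3 to day 5 was called under every alternative run, in both arms. For ascorbic acid at day 5, Hapln1 was called in the main fit (1 of 5) and lost (0 of 5) with the mean of its probe sets (1.36, adjusted p = 0.0889) and with only the groups compared in the fit (1.39, adjusted p = 0.45). Over all alternatives that keep every array its adjusted p ran from 1.04e-05 to 0.45. Leaving out replicates gave 0 to 1 genes; the call was lost without ascorbic acid replicate 1 (1.22, adjusted p = 0.0817) or replicate 2 (1.31, adjusted p = 0.0877). In the paired fit, leaving out any pair kept it (1.32 to 1.51, adjusted p 4.00e-05 to 3.95e-04; chosen after seeing the data). The replicate block within days also moved the average of days and the difference between days to 1 of 5 genes each, against 0 unpaired, and leaving out replicates gave 0 to 1 for each; it changed no other call of the 5 genes. At day 2 against day 0, 0 of 5 were called with only the groups compared (Has2 1.99, adjusted p = 0.113), and 1 to 2 without single replicates. From day 2 to day 3 with ascorbic acid, 1 gene was called with 1 probe set per gene, the mean of probe sets, the dim filter, renewed quantile normalisation or the replicate block across all groups, and 2 (Cd44, and low-end Tnfaip6 at -0.3933, adjusted p = 0.035) with only the groups compared, against 0 in the main fit and 0 to 1 without single replicates. With the mean of probe sets, Hapln1 turned to -0.0133 at day 2 against day 0 and to -0.0042 at day 3 against day 2 in controls, neither called. When replicates were left out, the sign of some uncalled differences was not fixed. The ranges given here cover the main fit without single arrays and, for ascorbic acid against control, the paired fit without single pairs. Hapln1 ran from -0.055 to 0.09 at day 2 against day 0 and from -0.045 to 0.075 at day 3 against day 2 in controls. It ran from -0.01 to 0.175 at day 3 against day 2 with ascorbic acid. For ascorbic acid at day 2 Hapln1 ran from -0.015 to 0.16, and from 0.015 to 0.12 in the main fit without single arrays. Vcan ran from -0.3483 to 0.0917 at day 3 against day 2 in controls and from -0.23 to 0.35 for ascorbic acid at day 5. Has2 ran from -0.345 to 0.1833 for ascorbic acid at day 2 and from -0.1494 to 0.0267 for the average of days. Tnfaip6 ran from -0.1317 to 0.3233 at day 2 against day 0. For ascorbic acid it ran from -0.1333 to 0.0617 at day 2 and from -0.065 to 0.025 at day 5. The causes of these changes were not tested.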
